A study of Mus musculus with 99 samples.

Results

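The endocannabinoid genes described here are the cannabinoid receptor gene Cnr1 and 7 genes of enzymes that make or break down its main lipid ligands: Dagla, Daglb, Mgll, Abhd6, Abhd12, Napepld and Faah. They were found by their mouse Ensembl identifiers through the symbols of GENCODE M21. All 8 were present among the 55335 gene identifiers of the count files, and all 8 passed the filter on low counts in every region.

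The libraries were made from bulk tissue punches of juvenile wild-type mice, offspring of C57BL/6 dams. The dams drank either water with fentanyl, an opioid agonist, at 10 µg/ml or plain water from embryonic day 0 until weaning, so the young were exposed through the mother. The punched regions were 2 subcortical sites, the VTA (ventral tegmental area, a midbrain site of dopamine neurons) and the VBT (ventrobasal thalamus, which passes touch on to the cortex), 2 cortical areas, S1 (primary somatosensory) and PrL (prelimbic), and the NAc (nucleus accumbens, part of the ventral striatum). Both sexes were sampled, which gave 20 groups of region, sex and treatment: 19 groups of 5 libraries and, for S1 of water males, 1 group of 4. The labels name no litters and do not say that the libraries of a group came from separate animals, so p-values measure the spread between these libraries only. They also do not say whether 1 animal gave punches of several regions, and the tests between regions treat all libraries as independent. The exact age is not given in the sources used here. In bulk tissue, fewer cells that express a gene cannot be told apart from less RNA per cell.

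Of the 99 libraries, 98 were used, with 23032078 to 52069639 counts on genes and 24079 to 27347 genes detected. The library VTA male water 3 had 6333 genes detected and was left out. Marker lists of VTA and VBT were highest in the libraries labelled so: the summed VTA list (Th, Slc6a3 and 4 others) was 335 to 1730 CPM (a gene's counts scaled to a common library total) in VTA libraries and at most 69.3 elsewhere, and the ventrobasal list was 1350 to 4160 CPM in VBT and at most 715 elsewhere. Several libraries stood apart by such lists. The cortex list was 1250 to 1750 CPM in S1 and 1370 to 2190 in PrL, and it does not tell these areas apart. Within NAc the cortex list (5 genes, among them Slc17a7 and Tbr1) ran from 53.7 to 1370 CPM, and in NAc female water 1 it exceeded the striatum list (1370 against 1100 CPM). VBT male water 3 had the lowest ventrobasal sum (1350 CPM) and the highest striatum sum of its region (714 CPM), and VBT female water 2 had 4510 CPM of choroid plexus genes. PrL female water 5 and PrL male water 3 had 171 and 324 CPM of olfactory bulb genes, against at most 31.0 in the other PrL libraries.

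Endocannabinoids are lipids that neurons make on demand from membrane phospholipids and that travel backwards across the synapse. They bind the presynaptic receptor CB1, the product of Cnr1, and lower transmitter release. The 2 best known are 2-arachidonoylglycerol (2-AG), made by the diacylglycerol lipases of Dagla and Daglb and cleaved by the hydrolases of Mgll, Abhd6 and Abhd12, and anandamide, for which Napepld encodes a synthesis enzyme and Faah the main hydrolase. In the brain CB1 is known for its density on axon terminals of CCK-type interneurons and in cortical and striatal circuits.

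The 8 genes differ in base composition, which is given here because the VTA libraries differed in how gene levels followed it. The GC content of exons is taken here over all annotated transcripts of a gene, so an exon shared by several transcripts counts more than once. It runs from 44.7% for Cnr1 through 45.6% for Napepld, 49.4% for Abhd6, 51.5% for Daglb, 54.0% for Abhd12, 54.8% for Faah and 55.7% for Mgll to 58.6% for Dagla. Over coding bases alone the range is narrower and Cnr1 (51.9%) is not the lowest: Abhd6 has 50.4%, Napepld 51.3%, Abhd12 51.6% and Dagla, the highest, 59.2%. The first 150 coding bases of the longest coding segment of Cnr1 and Dagla are shown, as the members called in that comparison, with G and C in capitals, read 5′ to 3′ on the gene's strand from GRCm38. The stretch of Cnr1 is in exon 2 of 2 on the plus strand, chr4:33943614-33943763, and 46% of it is G or C. The stretch of Dagla is in exon 20 of 20 on the minus strand, chr19:10248475-10248624, and 63.3% of it is G or C.
Cnr1: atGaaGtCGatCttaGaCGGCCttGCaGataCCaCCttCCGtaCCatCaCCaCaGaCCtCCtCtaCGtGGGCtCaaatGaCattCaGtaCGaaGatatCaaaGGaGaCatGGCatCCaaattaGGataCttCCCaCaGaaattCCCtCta
Dagla: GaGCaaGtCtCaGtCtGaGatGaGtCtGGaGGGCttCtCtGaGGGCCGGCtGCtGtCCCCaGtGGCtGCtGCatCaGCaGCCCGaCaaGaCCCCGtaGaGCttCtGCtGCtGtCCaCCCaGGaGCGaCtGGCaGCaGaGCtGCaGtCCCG

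Cnr1 (ENSMUSG00000044288, chr4:33924593-33948831, plus strand), the receptor gene, had the widest range of regional CPM means, with Napepld close to it. In the fitted tests the larger difference was that of Napepld (3.06 on the log2 scale for VBT minus NAc, against -2.98 for Cnr1, VBT minus PrL). In water libraries it was highest in PrL at 283 ± 62.2 CPM (SD, n = 10), then NAc at 199 ± 72.8 (n = 10), S1 at 142 ± 18.1 (n = 9), VTA at 69.2 ± 11.7 (n = 9) and VBT at 36.6 ± 20.3 (n = 10), a 7.74-fold range of means. The PrL libraries ran from 179.7 CPM through a median of 299 to 355 and the VBT libraries from 17.04 through 32.2 to 84.6, so these regions did not overlap. Of the neighbours in this order, NAc and S1 were not told apart (log2 difference 0.39, SE 0.18, adjusted p = 0.0676 in edgeR, but called under 4 alternatives with adjusted p from 0.0271 to 0.0492), while PrL and NAc, S1 and VTA, and VTA and VBT were. The VBT value of 84.6 CPM belongs to VBT male water 3, the library with few ventrobasal and many striatal marker counts, and the other 9 VBT water libraries had 17.04 to 56.0 CPM.

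**Figure D1:**
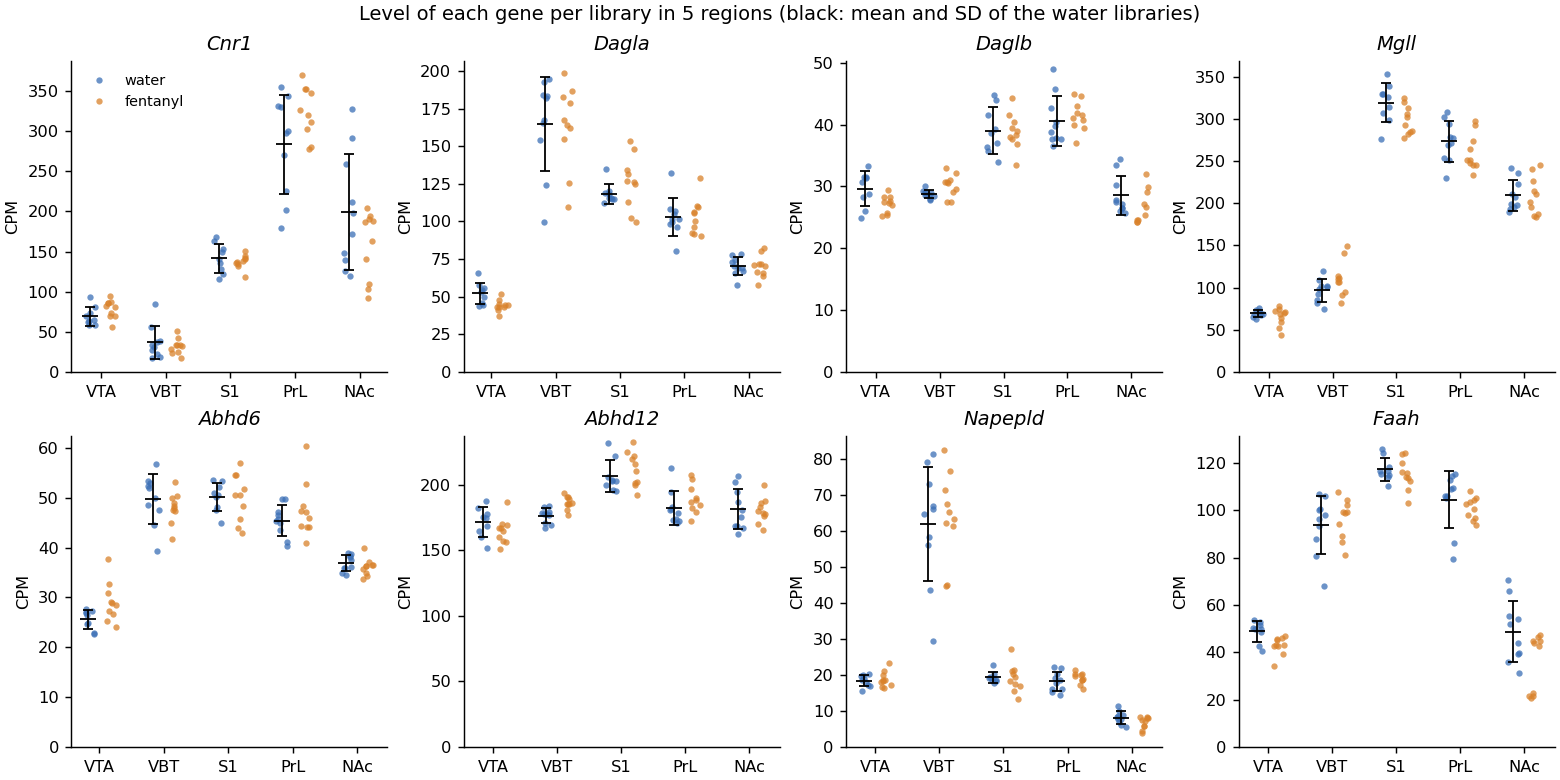
Scaled counts (CPM, y axis) of the 8 genes in each library of the 5 regions (x axis), blue for water and orange for fentanyl, with the mean and SD of the water libraries in black. Cnr1 peaks in PrL (mean 283 CPM), Dagla and Napepld in VBT (165 and 61.9 CPM), and the water means of Abhd12 lie between 172 and 207 CPM.

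Within NAc, Cnr1 moved with the cortical marker genes. The library with the highest cortex sum, NAc female water 1 (1370 CPM), had 328 CPM of Cnr1, and NAc female water 5 (1210 CPM) had 292. The 4 libraries with a cortex sum under 140 CPM, all from fentanyl groups, had 109, 103, 91.7 and 141 CPM. Faah was at 70.8 and 65.8 CPM in the first 2 and between 20.6 and 22.7 in those 4, and Napepld at 11.5 and 8.51 against 3.998 to 5.81. Mgll did not follow, with 193 and 190 CPM in the first 2 and 183 to 246 over all 20 libraries. The part of cortical tissue in the NAc levels of Cnr1, Faah and Napepld was not tested.

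**Figure D2:**
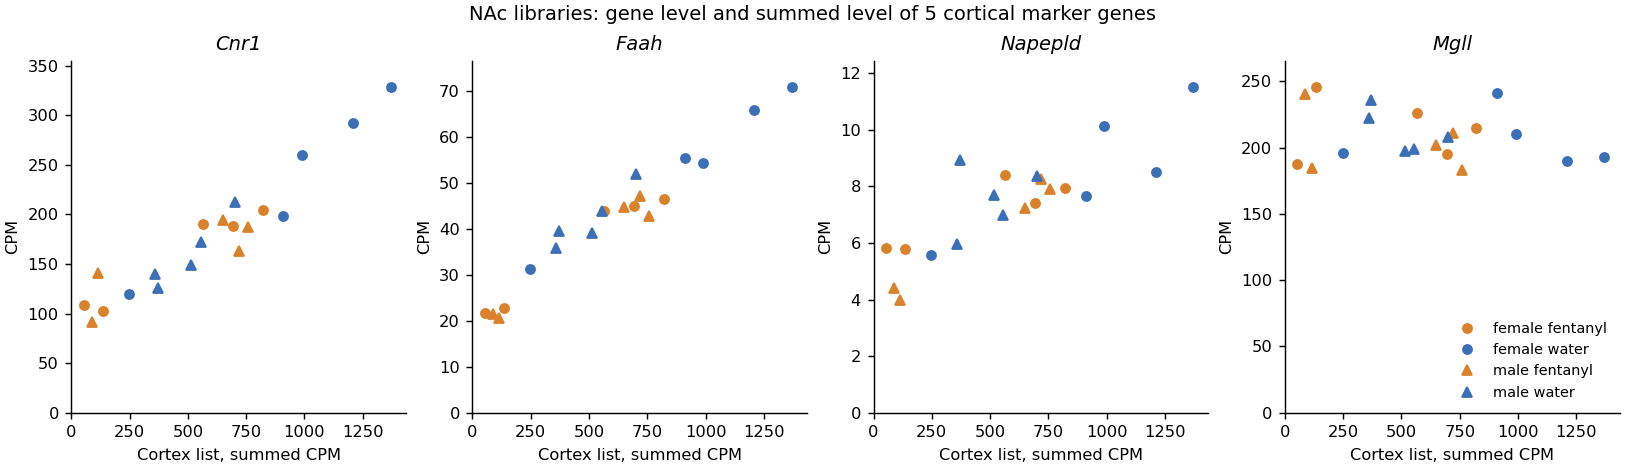
Level of Cnr1, Faah, Napepld and Mgll (CPM, y axes) against the summed CPM of 5 cortical marker genes (x axes) in the 20 NAc libraries, with circles for females, triangles for males, blue for water and orange for fentanyl. Cnr1 runs from 91.7 to 328 CPM and Faah from 20.6 to 70.8 along the cortex sum, and Mgll stays between 183 and 246.

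The 2 genes of 2-AG synthesis had different regional orders. Dagla (ENSMUSG00000035735, chr19:10245265-10304877, minus strand), the lipase best known for 2-AG at adult synapses, was highest in VBT at 165 ± 31.1 CPM in water (SD, n = 10), the region with the least Cnr1. S1 followed at 118 ± 6.57 (n = 9), PrL at 103 ± 12.8 (n = 10), NAc at 70.3 ± 6.00 (n = 10) and VTA at 52.2 ± 7.05 (n = 9). Only S1 and PrL were not told apart among neighbours (adjusted p = 0.10, edgeR), and this difference was called with the replicate block (adjusted p = 0.0479), with GC offsets (0.0354) and with water and fentanyl libraries together (0.00364). VBT male water 3 had 99.5 CPM and VBT female water 2 had 124.5, below the other 8 VBT water libraries at 154 to 195. Daglb (ENSMUSG00000039206, chr5:143464584-143505942, plus strand), the related lipase known also from microglia, was flat by comparison, from 28.5 ± 3.12 CPM in NAc to 40.6 ± 4.05 in PrL (n = 10 each), a 1.42-fold range. Daglb in S1 (39.0 ± 3.75, n = 9) was not told apart from PrL (adjusted p = 0.429), and S1 was above VTA (log2 difference 0.48). VTA and VBT were not told apart (adjusted p = 0.215). With water and fentanyl libraries together, PrL was above S1 (adjusted p = 0.0225) and VBT above VTA (VTA minus VBT -0.21, adjusted p = 9.16e-07), the latter opposite to the order of the CPM means in water and to the fit on total counts alone (0.05). In water VBT was above NAc by 0.15 (SE 0.06, adjusted p = 0.0283). That last call was lost without NAc female water 3 (adjusted p = 0.0758) or NAc female water 4 (0.0634). It was also lost on total counts alone (log2 difference 0.01, adjusted p = 0.831), in DESeq2 (0.0608) and in edgeR with DESeq2 size factors (0.0568). The same held without a low-count filter (0.0886), with GC offsets (0.0919) and with VTA male water 3 kept (0.761). Per kilobase of exon, Dagla made up 90.2% ± 2.18 of the Dagla and Daglb signal in VBT (n = 10) and 74.5% ± 1.69 in VTA (n = 9), and these libraries did not overlap (85.1% to 92.1% against 72.2% to 77.6%).

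The 3 hydrolases of 2-AG split by region. Mgll (ENSMUSG00000033174, chr6:88724412-88828360, plus strand), which encodes monoacylglycerol lipase, the enzyme thought to clear most 2-AG in brain, was told apart in all 10 pairs of regions. It had 320 ± 23.0 CPM in S1 (SD, n = 9), 274 ± 24.4 in PrL, 209 ± 18.3 in NAc, 96.7 ± 13.5 in VBT (n = 10 each) and 69.3 ± 3.90 in VTA (n = 9). The 9 S1 libraries lay between 276 and 353 CPM and the 9 VTA libraries between 63.0 and 75.3. Abhd6 (ENSMUSG00000025277, chr14:8002902-8056763, plus strand), a postsynaptic membrane hydrolase, had 50.2 ± 2.85 CPM in S1, 49.8 ± 5.03 in VBT, 45.4 ± 3.15 in PrL, 36.9 ± 1.59 in NAc and 25.6 ± 1.90 in VTA. Only S1 and VBT were not told apart among its neighbours (adjusted p = 0.553). The call of VBT over PrL (0.18) was lost with water and fentanyl libraries together (0.10, adjusted p = 0.0572). Abhd12 (ENSMUSG00000032046, chr2:150832493-150904741, minus strand), a hydrolase also known for lysophosphatidylserine, was the most even of the 8, from 171.6 ± 11.3 CPM in VTA to 207 ± 12.2 in S1 (n = 9 each). PrL, NAc and VBT (182.2, 181.5 and 176.5 CPM) were not told apart as neighbours, with adjusted p of 0.0875 and 0.0705. PrL over NAc and VBT over NAc were called with water and fentanyl libraries together (0.13 and 0.119, adjusted p = 0.000209 and 0.000517). Both were also called without the libraries that stand apart by markers (0.138 and 0.133, adjusted p = 0.0153 and 0.0144). VBT over NAc, also the sign of the reported fit (0.0988), is opposite to the order of the CPM means in water. The call of VBT over VTA (0.18) was lost on total counts alone (adjusted p = 0.478).

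Per kilobase of exon, Abhd12 was the highest of the 8 genes in each region, at 60.8 to 73.2 CPM per kb, and the balance with Mgll changed. The rank and the shares depend on the length used, which is that of all annotated exons together, not of the transcripts expressed. In plain CPM, Mgll was above Abhd12 in S1 (320 against 207), PrL (274 against 182) and NAc (209 against 181.5), and below it in VBT and VTA. Mgll made up 40.0% ± 2.41 of the 3 hydrolases in S1, 39.1% ± 1.83 in PrL and 34.1% ± 2.49 in NAc, against 18.6% ± 2.32 in VBT and 16.0% ± 1.01 in VTA. The highest VBT library (21.7%) was below the lowest NAc library (29.9%), so the cortical and accumbal libraries on the one side and the thalamic and midbrain libraries on the other did not overlap. Abhd12 took 71.3% ± 1.12 in VTA and 46.5% ± 2.18 in S1, and Abhd6 was largest in VBT at 20.5% ± 1.57.

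**Figure D3:**
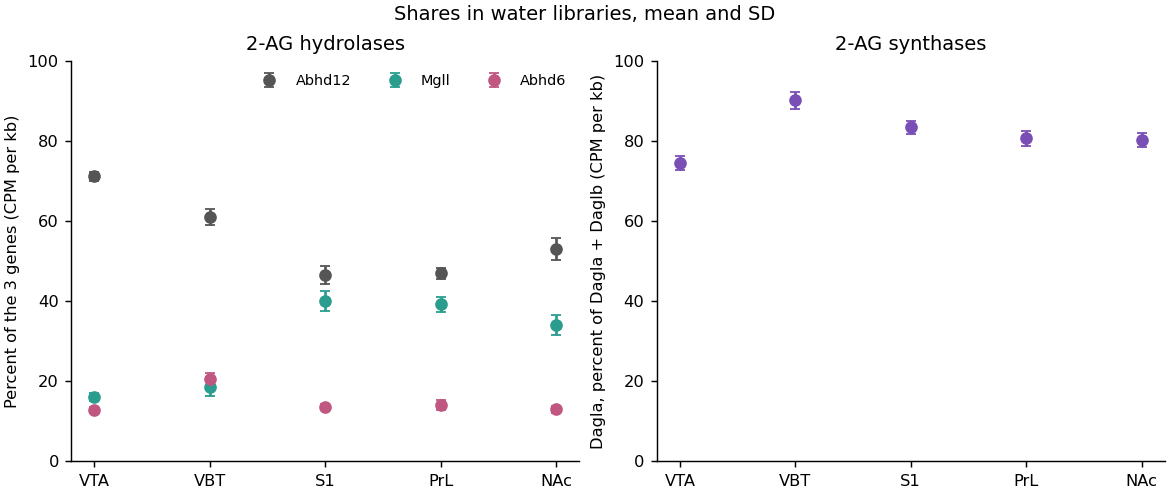
Mean and SD over the water libraries of each region (x axis) of the share of Abhd12, Mgll and Abhd6 in their summed CPM per kb (left, percent) and of Dagla in Dagla plus Daglb (right, percent). Mgll is at 34.1% to 40.0% in S1, PrL and NAc and at 16.0% and 18.6% in VTA and VBT.

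The 2 anandamide genes were both low in NAc but differed in the thalamus. Napepld (ENSMUSG00000044968, chr5:21662901-21701396, minus strand), a phospholipase D that releases anandamide from its membrane precursor, had 61.9 ± 15.9 CPM in VBT (SD, n = 10), 19.3 ± 1.44 in S1, 18.4 ± 1.59 in VTA (n = 9 each), 18.2 ± 2.71 in PrL and 8.13 ± 1.80 in NAc (n = 10 each), a 7.61-fold range. The lowest VBT library, at 29.6 CPM, was again VBT male water 3, and no library of another region in water exceeded 22.7. S1, VTA and PrL were not told apart as neighbours (adjusted p = 0.295 and 0.59), but without the libraries that stand apart by markers VTA was below S1 (-0.22, adjusted p = 0.0338) and PrL (-0.21, adjusted p = 0.0486). Faah (ENSMUSG00000034171, chr4:115967145-116017926, minus strand), the fatty acid amide hydrolase gene, had 117 ± 4.95 CPM in S1, 104.5 ± 11.98 in PrL and 93.8 ± 12.1 in VBT, which were not told apart as neighbours (adjusted p = 0.235 and 0.333), while VBT was below S1 (-0.27, adjusted p = 0.0201). It had 48.9 ± 4.42 in VTA and 48.8 ± 13.0 in NAc, also not told apart (adjusted p = 0.903).

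The regional calls among the 8 are given beside the share of all 21468 genes tested that passed, and whether the members pass more often than other genes was not tested. Between VTA and VBT 7 of 8 passed (52.5% of all genes), between VTA and S1 7 (67.6%), VTA and PrL 7 (66.5%), VTA and NAc 5 (64.8%), VBT and S1 7 (68%), VBT and PrL 6 (68.4%), VBT and NAc 7 (67.8%), S1 and PrL 3 (37.3%), S1 and NAc 7 (53.3%), and PrL and NAc 7 (50.3%). Of 31 other genes of endocannabinoid signalling, 28 were tested. Their calls ran from 14 between S1 and PrL (6 higher and 8 lower in S1) to 24 between VBT and S1 (11 higher and 13 lower in VBT) and 24 between VBT and PrL (9 higher and 15 lower in VBT). Named after their values were seen, Plcb4, a phospholipase C that yields diacylglycerol, was highest in VBT like Dagla (519 ± 131 CPM in water, SD, n = 10), and Grm5, a glutamate receptor that signals through phospholipase C, was highest in NAc (456 ± 66.0, n = 10).

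Among 12996 genes with a mean of at least 5 CPM in 1 or more regions, those whose log2(CPM + 1) was closest to each member over the 98 libraries were taken by Pearson's r, which mostly reads the order of the regions. For Cnr1 they were Pde1a (0.949), Sh3rf1 and Ldha, and for Dagla Adgrb1 (0.946), Src and Rtn4rl1. For Daglb they were Apba2 (0.928), 6330403L08Rik and Rap1gap2. For Mgll they were Lhx2 (0.976) and Strn4, and for Abhd6 Ttc7b (0.939), Rgs4 and Adcy1. Abhd12, the flattest member, had the weakest likeness, to Napa (0.843), Nudt3 and Kcnj11. Napepld was closest to Ccdc136 (0.978), Mturn and Nt5dc3, and Faah to Shank1 (0.973), Kcnk4 and Atxn7l3. After subtraction of each group's mean, the pair that varied most together across the 98 libraries was Napepld and Faah (Pearson's r 0.676, Spearman's rho 0.605), and Cnr1 and Dagla had the lowest value (-0.303 and -0.234). These pooled values hide differences between regions: r for Napepld and Faah was 0.88 in VBT (n = 20) and 0.297 in VTA (n = 19), and r for Cnr1 and Dagla was -0.814 in VBT, -0.549 in VTA, 0.0739 in S1 (n = 19) and 0.542 in NAc (n = 20). In VBT, Dagla and Napepld reached 0.978, and both were low in the libraries with few ventrobasal marker counts. Genes of a library share its depth and base composition, so these are descriptions without a test.

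Fentanyl exposure was compared with water within each region and sex, as the design allows, with edgeR over all genes of the region. Members passed the test in VTA only, where Dagla was lower and Cnr1 higher in fentanyl males, in a contrast in which 22% of all genes passed (11% up and 11% down). In VTA of males, Dagla was 37.1, 44.5, 43.4, 40.9 and 51.9 CPM after fentanyl and 54.3, 55.6, 65.5 and 53.0 CPM in water. Each fentanyl library was below each water library, and the groups did not overlap in 22.4% of all genes tested. The log2 fold change of Dagla was -0.36 (SE 0.08, adjusted p = 0.00674). Cnr1 was 94.7, 73.8, 85.9, 87.1 and 85.7 CPM after fentanyl and 58.0, 64.8, 63.1 and 74.0 in water. The groups overlap only in the lowest fentanyl and the highest water library (73.8 and 74.0), and the log2 fold change was 0.44 (SE 0.13, adjusted p = 0.0255). Cnr1 lost its call without male fentanyl 1 (adjusted p = 0.063), male water 1 (0.0798) or male water 4 (0.0741), while Dagla kept it in each of the 19 such fits.

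The other members in VTA of males ranged from -0.25 (Mgll) to 0.26 (Abhd6) in log2 fold change and did not pass. The median over the 8 was -0.11, against 0.00171 over all genes. With Daglb and Faah, 3 of 8 members did not overlap between the groups, beside the 22.4% of all genes. Daglb was at 25.3 to 28.3 CPM after fentanyl and 28.8 to 33.4 in water (log2 fold change -0.21, SE 0.08, adjusted p = 0.0582), and Faah was at 34.4 to 46.0 and 49.7 to 52.9 (-0.24, SE 0.09, adjusted p = 0.0773). In females 0 of 8 members passed (0% of all genes) and 0 had an unadjusted p under 0.05, beside 2518 of 19822 genes. Dagla had the smallest p there, at 42.9 to 47.8 CPM after fentanyl and 44.1 to 57.7 in water (log2 fold change -0.13, SE 0.08, adjusted p = 0.51), and Cnr1 was at 56.0 to 81.6 and 58.1 to 92.9. The difference between the sexes passed for 0 members (0% of all genes) in VTA. An unadjusted p under 0.05 was reached by 2 members (Mgll and Cnr1), beside 2256 of 19822 genes. For Cnr1 the difference was 0.48 (SE 0.18, adjusted p = 0.42). Averaged over the sexes, Dagla (-0.24, SE 0.06, adjusted p = 0.00617) and Faah (-0.19, SE 0.06, adjusted p = 0.0436) passed, against 23.1% of all genes (11.1% up and 12% down), and Faah lost its call in 14 of 19 fits that left out 1 library. DESeq2 called the same members in these 4 contrasts.

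**Figure D4:**
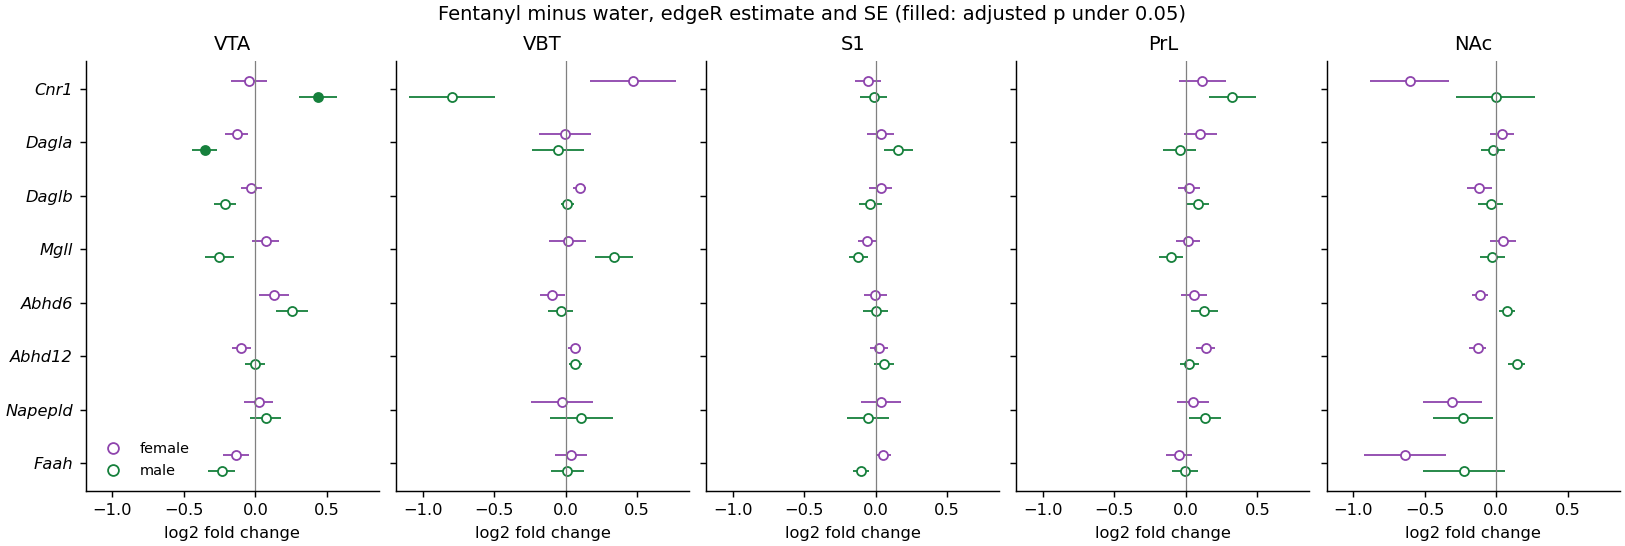
Log2 fold change of fentanyl over water (x axis, bars are the SE of edgeR) for the 8 genes (y axis) in each region, purple for females and green for males, filled where the adjusted p is under 0.05. Only Dagla (-0.36) and Cnr1 (0.44) in VTA of males are filled, and the widest bars are those of Cnr1 in VBT (SE 0.30) and of Faah and Cnr1 in NAc (SE 0.29 and 0.28).

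The VTA libraries of the same groups also differed in how gene levels followed base composition and exon length. For each library, the log2 ratio of every gene to the regional mean was ranked against the GC content of its exons, and Spearman's rho across genes, which are not independent replicates, was 0.687 ± 0.0479 in water males (SD, n = 4) and -0.404 ± 0.215 in fentanyl males (n = 5). The male groups did not overlap (0.626 to 0.74 against -0.595 to -0.152). The same measure against exon length did not overlap in males either, at -0.298 to -0.175 in water and -0.0397 to 0.258 after fentanyl, and with offsets for exon length Dagla and Cnr1 were still called. In females the GC values were 0.0693 ± 0.567 in water and -0.373 ± 0.27 after fentanyl (n = 5 each). From the lowest to the highest GC content of exons, the log2 fold change in males was 0.44 for Cnr1, 0.07 for Napepld, 0.26 for Abhd6, -0.21 for Daglb, 0 for Abhd12, -0.24 for Faah, -0.25 for Mgll and -0.36 for Dagla, so the order was not strict. With an offset for the GC trend of each library, 0 of 8 members passed in males, with the log2 fold change of Dagla at -0.01 (SE 0.07, adjusted p = 0.972) and that of Cnr1 at 0.28 (SE 0.12, adjusted p = 0.226). In the average over the sexes 0 passed as well, with Dagla at -0.003 (adjusted p = 0.988) and Faah at -0.05 (adjusted p = 0.714). Among all genes the calls in males went from 4355 to 522 of 19822, and in the average from 4580 to 665. Fentanyl and library composition cannot be told apart in males of this region, because their groups do not overlap in either.

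**Figure D5:**
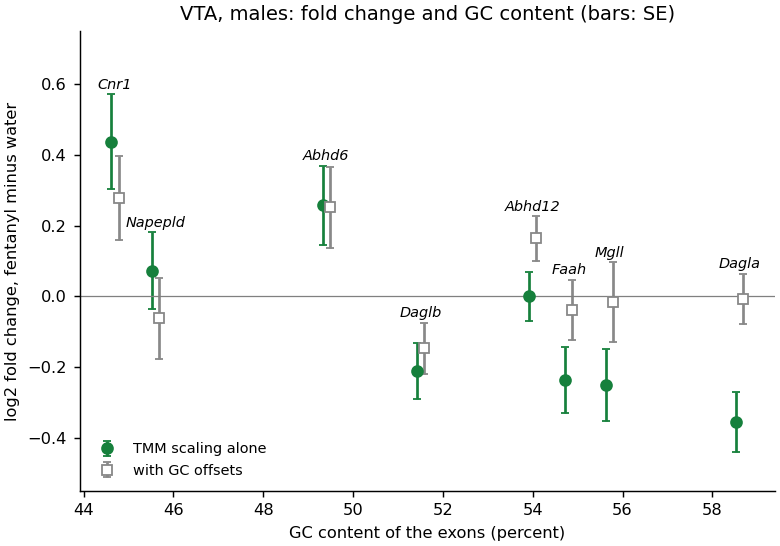
Log2 fold change of fentanyl over water in VTA of males (y axis, bars are the SE) against the GC content of each gene's exons (x axis, percent), green for the fit with TMM scaling alone and grey for the fit with GC offsets. Dagla moves from -0.36 to -0.01 and Cnr1 from 0.44 to 0.28.

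Cell type markers also moved in that contrast. The 5 choroid plexus genes had a median log2 fold change of -3.14, with Ttr and Folr1 lower after fentanyl, and their summed level ran from 12.2 to 25.0 CPM in fentanyl males. In water males it was 1030 CPM in male water 2 and 22.4, 49.1 and 9.76 in the other libraries, so the high level was that of 1 library. None of the 6 VTA genes passed (median -0.71), with a summed level of 335 to 1240 CPM after fentanyl and 864 to 1500 in water. The CCK-type interneuron list, whose cells are rich in CB1, had 0 of 5 called and 76.0 to 136 against 131 to 167 CPM. Across regions this list did not follow Cnr1. It was 323 ± 32.9 CPM in PrL and 296 ± 74.8 in VBT, the region with the least Cnr1, and 99.5 ± 45 in NAc (SD, n = 20 each). Of the microglia list P2ry12 was higher (0.47) and C1qa lower (-0.57), of the endothelium list Slco1a4 was higher (0.47) and Cldn5 lower (-0.67), and of the ventrobasal list Rora was higher (0.40). The 4 neuron genes summed to 3210 to 3500 CPM after fentanyl and 2740 to 3020 in water, without overlap, and 0 of them passed singly in edgeR. The astrocyte, oligodendrocyte, blood, olfactory bulb, cortex and striatum lists had no gene called. Their part in the result was not tested. Of the 4 VTA libraries whose VTA list was under 500 CPM, the males were both from the fentanyl group. Without these 4 libraries, Dagla (-0.29, adjusted p = 0.0496) and Cnr1 (0.34, adjusted p = 0.0415) still passed in males.

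Of the 31 pathway genes, 27 were tested in VTA. In males 1 rose and 5 fell, a share of calls near the 22% of all genes, so the count is not particular to these genes: Sgip1, whose product binds CB1 and slows its internalisation, rose (0.25, SE 0.08, adjusted p = 0.0333), and Abhd16a, a phosphatidylserine lipase gene (-0.37, SE 0.09), and Gna11, a G protein subunit that activates phospholipase C (-0.28, SE 0.07), fell (adjusted p = 0.00652 each). In the average, where 23.1% of all genes passed, 2 rose, Gdpd1 (0.14) and Sgip1 (0.18), and 4 fell, Abhd16a (-0.27) and Gna11 (-0.19) with the smallest p. With GC offsets none of these named genes passed. Fabp7, an astrocyte fatty acid binding protein gene named after its values were seen, was the only pathway gene called in males both without and with the offsets (-0.53, adjusted p = 0.0372, and -0.76, adjusted p = 0.0468). In the 4 other regions no pathway gene was called in any of the 4 contrasts.

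Outside VTA, 0 of 8 members passed in any contrast. All genes passed at 0% in each VBT contrast, at 0.142% in females, 0% in males and 1.03% on average in S1, at 0.021%, 0% and 0.697% in PrL, and at 0%, 0.662% and 0% in NAc, and at 0% for the difference between the sexes in each. Over the 64 member fold changes of the 8 contrasts within a sex, the median size was 0.06 on the log2 scale, 7 had an unadjusted p under 0.05, and DESeq2 called 0. Of all genes, 1487 (females) and 1646 (males) of 18923 had such a p in VBT. The counts were 2752 and 1412 of 19748 in S1 and 1817 and 2284 of 19074 in PrL, and those of NAc are not given here. Whether the members reach it more often was not tested. In the averages and sex differences an unadjusted p under 0.05 was reached by Faah on average in NAc and, for the sex difference, by Cnr1 in VBT and by Abhd6 and Abhd12 in NAc.

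The largest of these fold changes was that of Cnr1 in VBT. In males Cnr1 was 24.7, 17.2, 28.9, 33.1 and 33.6 CPM after fentanyl and 38.7, 22.9, 84.6, 33.7 and 56.0 in water (log2 fold change -0.79, SE 0.30, adjusted p = 0.436). The groups overlap, and the highest value is that of VBT male water 3, without which the log2 fold change was -0.49 (adjusted p = 0.673). Adjusted for each library's share of non-exonic reads it was -0.35 (adjusted p = 0.56). In females, described after the values were seen, Cnr1 was 32.1, 51.5, 23.3, 41.7 and 33.2 CPM after fentanyl and 27.5, 37.2, 17.04, 30.7 and 18.1 in water (0.47, SE 0.30, adjusted p = 0.75). The difference between the sexes was -1.26 (SE 0.43, adjusted p = 0.37) and did not pass. In VBT of females Daglb had the smallest p (0.10, SE 0.04, adjusted p = 0.603). Of the NAc contrasts in females, Faah had the smallest p, at 21.7, 22.7, 45.0, 46.4 and 44.0 CPM after fentanyl and 70.8, 55.3, 31.3, 54.3 and 65.8 in water (-0.64, SE 0.29, adjusted p = 0.544). The cortex list in these groups was 53.7 to 821 CPM after fentanyl and 247 to 1370 in water, and its part in the difference was not tested.

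Abhd12 had the smallest p in NAc males, at 178 to 200 CPM after fentanyl and 163 to 187 in water (0.14, SE 0.06, adjusted p = 0.204). Its difference between the sexes in NAc (0.27, SE 0.08, adjusted p = 0.135) did not pass in edgeR, and DESeq2 called it. In PrL, Abhd12 had the smallest p in females (0.14, SE 0.07, adjusted p = 0.528) and Cnr1 in males, with 303 to 353 CPM after fentanyl and 180 to 331 in water (0.33, SE 0.16, adjusted p = 0.437). Without the 2 PrL libraries high in olfactory bulb genes the value for Cnr1 was 0.21 (adjusted p = 0.563). In S1 the smallest p was that of Faah in females (0.05, SE 0.05, adjusted p = 0.707) and of Mgll in males (-0.12, SE 0.07, adjusted p = 0.73).

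No source used here says that counting used strand. Overlaps are given here by whole gene spans, introns included, and whether they touch the counts of a member was not tested. Dagla overlaps the antisense gene AC132148.1, Daglb overlaps Rac1, Mgll overlaps 5 non-coding models, Abhd12 holds the small nucleolar RNA gene Gm23598 and Napepld the pseudogene Gm15719, while Cnr1, Abhd6 and Faah overlap no other gene in GENCODE M21.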

How the data were processed

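RNA sequencing of bulk punches was analysed from 99 libraries. Per the submitters' processing notes, the deposited values are raw counts per Ensembl gene from HTSeq on GRCm38, not normalized by the authors; the aligner and the annotation release are not given in the sources used here. Library totals are stated with the results. Positions, exon lengths and GC contents are from GENCODE M21. The exon length of a gene covers all its annotated exons, each base counted once. CPM was scaled to the total on genes, without the 5 lines of unassigned reads. VTA male water 3 was left out for having under 10000 genes detected.

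Each region was fitted alone with the edgeR 4.0.16 quasi-likelihood test (R 4.3.3, TMM scaling, filterByExpr on 4 groups). Regions were compared in the water libraries of all regions in 1 fit, averaged over the sexes. The Benjamini-Hochberg adjustment ran over all genes tested in a fit, and an adjusted p under 0.05 is called. The fits were tested on simulated data. DESeq2 1.42.0 was an alternative, beside other scalings, filters, a replicate block, offsets for GC content or exon length, the percent of reads outside exons, and libraries left out. Leaving out libraries that stand apart by marker lists was chosen after seeing the data.

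The members, lists and tests were chosen with earlier results of these data known. Named are all members, those called or, failing that, the smallest p per sex and region; up to 2 pathway genes called per direction; and the 3 genes most like each member, of which 1 is not reported here. Library pairs of a group differed by at least 7.1 in chi-square per degree of freedom, so none was taken as a repeat deposit.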

Additional observations from a re-analysis of the deposited data

Results flagged for a closer look

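In 11 of 160 sets of a gene, region, sex and treatment, 1 library lay far from the rest of its group, where chance alone gives about 8 (1 in 20). Faah accounted for 4. It was 34.4 CPM in VTA male fentanyl 5, below 42.7 to 46.0 in the other libraries of its group, and 67.9 CPM in VBT male water 3, which had the fewest ventrobasal marker counts of VBT. It was also low in PrL female water 5 (86.2 CPM) and PrL male water 3 (79.7 CPM), the 2 PrL libraries high in olfactory bulb genes. Abhd6 was 44.6 CPM in VBT female water 2, the library high in choroid plexus genes. Abhd12 was high in VTA male fentanyl 4 (187 CPM) and PrL male water 5 (213 CPM). Napepld was high in VTA female fentanyl 2 (21.1 CPM) and S1 male water 1 (22.7 CPM). Daglb was high in NAc male fentanyl 5 (29.8 CPM) and Mgll in S1 male fentanyl 2 (321 CPM). The part of other tissue in these values was not tested.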

How the results depend on the processing

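In VTA of males 2 members were called; the count was 1 without a low-count filter, 0 with GC offsets, 4 with exon length offsets, 4 with the percent of reads outside exons, 1 to 4 with each library left out (4 without male fentanyl 4, 1 without male water 1 or 4), and 0 with VTA male water 3 kept. Over all genes, the calls in that contrast were 4355 of 19822, and 3293 of 35648 without a low-count filter. They were 522 of 19822 with GC offsets, 4136 with exon length offsets and 5527 with the percent of reads outside exons. With VTA male water 3 kept they were 42 of 19443. In that fit the folds of Dagla and Cnr1 were as large and their SE wider (Dagla -0.391, SE 0.15, Cnr1 0.464, SE 0.155). The kept library had 142 CPM of the VTA list, 1870 CPM of the ventrobasal list and 0 CPM of Daglb and Faah. In the VTA average (2) the member count was 0 with GC offsets, 0 with VTA male water 3 kept, and 1 to 3 with each library left out. Over all genes the calls there were 4580 of 19822, 665 with GC offsets and 60 of 19443 with VTA male water 3 kept. In this last fit Faah was at -0.0271 (SE 0.527). With the replicate block the member count was 3 in VTA males and 2 in the average, beside 3749 and 4219 of 19822 genes. For the sex difference in NAc (0) it was 1 in DESeq2 and 0 to 1 with each library left out (1 without female water 3). Between VBT and S1 (7, beside 68% of all genes) it was 4 with VTA male water 3 kept. Between S1 and PrL (3, beside 37.3% of all genes) it was 5 with the replicate block and 5 with water and fentanyl libraries together. It was 1 with VTA male water 3 kept, and 3 to 5 with each library left out (5 without VBT male water 3). The shares of all genes under the alternatives of the NAc and regional counts are not given here, so these counts are not read as particular to the members. The causes were not tested.

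Signs turned only in differences that were not called with the reported settings. With GC offsets Dagla in VTA females was 0.00208 and Faah in S1 females -0.0226, and with the percent of reads outside exons, which was 11.0 ± 0.678 in PrL fentanyl females and 13.3 ± 0.85 in water (n = 5 each), Abhd12 there was -0.117. On total counts alone, Daglb was 0.0469 (VTA minus VBT), Abhd6 -0.017 (VBT minus S1), Abhd12 -0.038 (VBT minus NAc) and Napepld 0.0148 (VTA minus PrL). With VTA male water 3 kept, Napepld was 0.0911 (VTA minus S1) and 0.169 (VTA minus PrL). Faah, VTA minus NAc, was -0.0283 with DESeq2 size factors and in DESeq2, -0.0304 without a filter, -0.00937 with the replicate block, -0.0823 with GC offsets, -0.181 with VTA male water 3 kept, and -0.0608 to 0.0728 with each library left out. The Cnr1 difference between NAc and S1 passed in DESeq2 (adjusted p = 0.0419), on total counts alone (0.0282), with GC offsets (0.0492) and with water and fentanyl libraries together (0.0271). For VTA minus VBT the median of all genes was 0.16 on the log2 scale on total counts alone and 0.02 with TMM.

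Same-numbered fentanyl and water libraries correlated at -0.48 to 0.525 over 48 pairs (median 0.0526, 18 over 0.1). In VTA females and in VBT females, 3 of 5 fentanyl libraries were closest to the water library of their own number. In the other regions and sexes 0 to 2 were. These values do not settle whether the numbers pair libraries, and the reported fits do not pair them. Same-numbered water libraries of different regions correlated at -0.275 to 0.326 over 92 pairs (median 0.0657, 34 over 0.1).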
